A study of Mus musculus with 4 samples.

Results

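The receptor PSGL-1, its binding partner VISTA and 7 enzymes that build or sulfate selectin ligands were followed through the immune cells of mouse melanomas. These 9 genes, Selplg (PSGL-1), Vsir (VISTA), Fut7, Gcnt1, Tpst1, Tpst2, St3gal4, St3gal6 and B4galt1, were taken by name from the 27998 genes in the deposited tables, and all 9 were found there. The rule for choosing them uses names and no measured value, but the members were chosen with earlier results of these data known. Tumours of B16-GP33, a melanoma line that carries a viral peptide antigen, were grown in C57BL/6 mice. One group of mice received control IgG, one anti-PD-1, one anti-PSGL-1 and one both of these antibodies (the combination), at 200 ug of each on days 8, 10 and 12, and tumours were collected on day 18. Sorted cells carried CD45.2 and excluded propidium iodide, a dye that enters dead cells, and each treatment gave 1 droplet library with no replicate. The labels do not give the number of mice behind a library.

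PSGL-1 is a mucin-like protein of leukocytes that lets them roll on P-, E- and L-selectin, and it also restrains T cells under lasting antigen exposure. Sugars and sulfates on PSGL-1 have a part in its binding to selectins. B4galt1 adds galactose, Gcnt1 starts the core 2 branch of an O-glycan, and St3gal4 and St3gal6 add sialic acid. Fut7 adds the fucose of sialyl Lewis x, and Tpst1 and Tpst2 sulfate tyrosines. VISTA is an inhibitory receptor of myeloid and T cells that binds PSGL-1 at acidic pH.

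Start regions of Fut7 and Gcnt1 are printed because these 2 enzymes had the largest ratios of a treated library to IgG in CD8 T-like cells, given further on. Each is 250 bases upstream of a RefSeq transcript start on GRCm38.p6, 5′ to 3′ on the strand of the gene. Fut7 lies on the plus strand and has 2 such windows, of which the outer one is shown; capitals mark ACCACA, the reverse complement of the Runx core TGTGGT.
Fut7 chr2:25422992-25423241: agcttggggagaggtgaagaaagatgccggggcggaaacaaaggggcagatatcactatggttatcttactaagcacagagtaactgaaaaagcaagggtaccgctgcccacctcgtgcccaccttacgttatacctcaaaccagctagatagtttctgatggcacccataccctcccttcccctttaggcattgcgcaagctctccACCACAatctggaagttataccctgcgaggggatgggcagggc
Gcnt1 lies on the minus strand and has 3 windows, of which the outermost is shown; capitals mark the T-box core TCACAC, whose reverse complement is GTGTGA.
Gcnt1 chr19:17372845-17373094: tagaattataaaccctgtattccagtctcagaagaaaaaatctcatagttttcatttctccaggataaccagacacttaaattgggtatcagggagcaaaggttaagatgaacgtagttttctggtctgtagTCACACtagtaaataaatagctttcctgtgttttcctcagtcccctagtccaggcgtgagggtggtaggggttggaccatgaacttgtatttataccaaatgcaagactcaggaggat
Factors of the Runx and T-box families act in effector CD8 T cells, and both cores were searched on both strands. The 2 cores share no overlapping match in these windows. The Runx core was present in 3 of 15 start windows of 8 members (Fut7, St3gal6 and B4galt1) and in 14.0% of all 32851 windows of the same length. The T-box core was present in 1 of the 15, the Gcnt1 window shown, and in 12.3% of all windows. A match describes letters, not a bound site.

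On the mm10 assembly, Selplg spans positions 113818536 to 113832644 of chromosome 5, minus strand. Vsir spans 60346851 to 60372684 of chromosome 10, plus strand, and overlaps Cdh23 on the other strand. Fut7 spans 25423267 to 25426374 of chromosome 2, plus strand, and Gcnt1 17326141 to 17372844 of chromosome 19, minus strand. St3gal6, at 58468125 to 58524243 of chromosome 16, minus strand, overlaps Dcbld2 on the other strand. Whether strand was used in counting is not given in the sources used here, so reads of Vsir and Cdh23, and of St3gal6 and Dcbld2, may not have been told apart.

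Of 27270 barcodes, 24487 cells were kept, 8748 from IgG, 5019 with anti-PD-1, 6492 with anti-PSGL-1 and 4228 with the combination. Median UMIs (captured RNA molecules) per cell were 3674.5, 6252, 6164 and 8392 in that order, the order used for every set of 4 values below. Marker genes named 12 cell classes, and the 7 with at least 50 cells in each library were compared between treatments. The IgG library stood apart by a cluster of 1161 cells, 1080 of them its own, in which 57.5% of cells mixed markers of different lineages. This cluster was left unnamed and out of every class level and ratio, but its cells are in the kept cells and median UMIs above. Across libraries 67 barcodes recurred, in 122 kept cells, and leaving these out moved no count of members by over 1.5 times.

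Levels are CPM, the UMIs of a gene over all UMIs of its class in that library, with exact Poisson 95% intervals. They compare 1 gene between classes or libraries, not genes with each other. All intervals cover counting error only. An exact paired permutation test of 2 classes over 4 libraries cannot reach a two-sided p of 0.05, and the 4 libraries are different treatments, so the text states whether the ranges of the libraries overlap.

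Selplg, which encodes PSGL-1 itself, was highest in plasmacytoid dendritic-like and NK-like cells and lowest in B-like cells. Plasmacytoid dendritic-like cells had 1089 CPM in IgG (184 cells) and 1125 with anti-PD-1 (26 cells), and only 12 and 2 such cells were found in the other libraries. NK-like cells had 874 CPM in IgG, 876 with anti-PD-1, 662 with anti-PSGL-1 and 704 with the combination. Both libraries that included anti-PSGL-1 were the lower ones in NK-like cells. Values in CD8 T-like cells were 462, 438, 454 and 476 CPM, close together. Conventional CD4 T-like cells, at 553, 491, 409.5 and 517 CPM, overlapped them, and regulatory T-like cells, at 374 to 422 CPM, lay below without overlap.

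Macrophage- and monocyte-like cells had 145, 140.2, 143 and 165 CPM of Selplg, overlapping neither neighbour in the order of classes. Above them were cDC1-like cells at 256 to 299 CPM, cDC2-like cells at 282 to 332 and neutrophil-like cells at 246 to 519.6, which overlapped each other. Migratory dendritic-like cells, with enough cells in 3 libraries, had 562 to 849 CPM and overlapped NK-like cells. B-like cells had 63.8 to 130.3 CPM.

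Vsir, which encodes VISTA, was highest in neutrophil-like and in macrophage- and monocyte-like cells. The first had 167, 207, 203 and 228 CPM and the second 157, 127, 173 and 166 CPM, and these 2 classes overlapped each other but not the next. Conventional CD4 T-like cells followed at 75.2 to 104 CPM and regulatory T-like cells at 79.0 to 95.7 CPM. CD8 T-like cells had 62.2, 75.8, 51.5 and 71.7 CPM, lowest with anti-PSGL-1. NK-like cells, among the highest for Selplg, had 28.1 to 34.2 CPM of Vsir, below CD8 T-like cells without overlap.

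**Figure D1:**
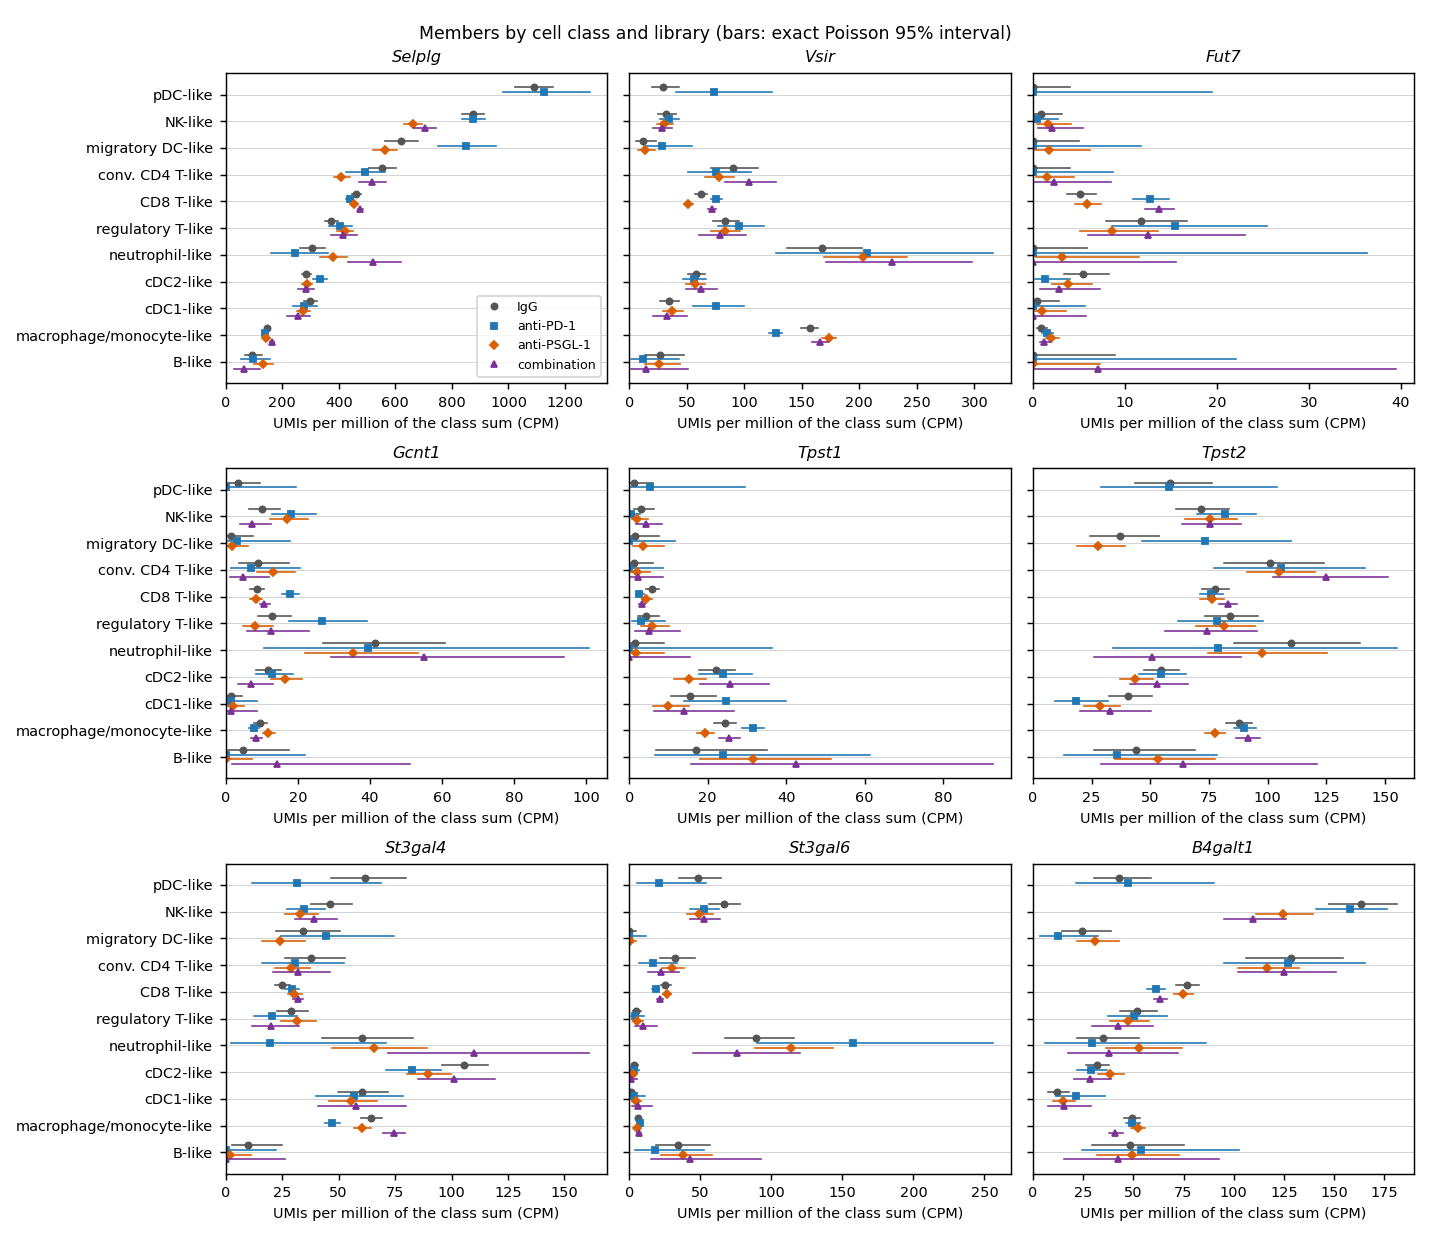
Level of each of the 9 genes (CPM of the summed class) by cell class, 1 point per library with at least 20 cells of the class and its exact Poisson 95% interval. Selplg reaches 1125 CPM in plasmacytoid dendritic-like cells and Vsir 228 CPM in neutrophil-like cells. Fut7 has its highest medians over the libraries in regulatory T-like and CD8 T-like cells, and the latter overlap cDC2-like cells.

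Fut7, the fucosyltransferase, had its highest median levels over the libraries in regulatory T-like and CD8 T-like cells. The range of cDC2-like cells, 1.38 to 5.44 CPM with the highest value in IgG, overlapped that of CD8 T-like cells. CD8 T-like cells had 5.14 CPM in IgG, 12.7 with anti-PD-1, 5.85 with anti-PSGL-1 and 13.7 with the combination, from 45, 161, 71 and 292 UMIs. Regulatory T-like cells had 11.7, 15.4, 8.61 and 12.5 CPM and overlapped them. In both classes the anti-PD-1 and combination libraries had the higher CPM, though in regulatory T-like cells the combination, with 78 cells, was close to IgG. On cells thinned to equal depth, regulatory T-like cells did not keep this order. A Fut7 UMI was then found in 13 of 429 cells in IgG and 2 of 120 with anti-PD-1. It was found in 5 of 236 with anti-PSGL-1 and 2 of 75 with the combination. The intervals of these shares overlapped, so no direction is read from them. NK-like cells, high in Selplg, had 0.879, 0.489, 1.61 and 2.12 CPM of Fut7 from 2, 1, 4 and 4 UMIs. Conventional CD4 T-like cells had 0, 0, 3 and 2 UMIs; a count of 0 allowed up to 3.33 CPM in IgG and 7.05 CPM with anti-PD-1 (3 counts of the class sum).

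Gcnt1, the core 2 branching enzyme, was highest in neutrophil-like cells at 41.4, 39.4, 35.2 and 54.9 CPM, above each other class with 20 or more cells in at least 2 libraries. The neutrophil-like value with anti-PD-1 rests on 54 cells with 101593 UMIs over all genes, so its counting error is wide. In CD8 T-like cells Gcnt1 was 8.57, 17.8, 8.32 and 10.7 CPM and in regulatory T-like cells 12.9, 26.8, 8.13 and 12.5 CPM. The library with anti-PD-1 alone was highest in both. The 24 mast or basophil-like cells of IgG had 82.7 CPM, the only library with 20 such cells.

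The tyrosine sulfotransferases differed in where they were found. Tpst2 was present across classes, at 75.9 to 83.0 CPM in CD8 T-like cells, 77.4 to 91.5 in macrophage- and monocyte-like cells and 101 to 125 in conventional CD4 T-like cells. The last range lay above the first 2 but overlapped the 50.7 to 110.0 CPM of neutrophil-like cells. Macrophage- and monocyte-like cells had 24.3, 31.5, 19.3 and 25.4 CPM of Tpst1, and it was 15.1 to 25.7 CPM in cDC2-like cells, 9.92 to 24.6 in cDC1-like cells and 17.0 to 42.5 in B-like cells, which all overlapped. It was 5.72, 2.61, 4.36 and 3.23 CPM in CD8 T-like cells and 0 to 1.6 CPM in neutrophil-like cells. The neutrophil-like sums were only 101593 UMIs with anti-PD-1 and 236719 with the combination, so a value of 0 sets no tight upper limit.

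Of the sialyltransferases, St3gal4 leaned to cDC2-like, cDC1-like and macrophage- and monocyte-like cells and St3gal6 to neutrophil-like and NK-like cells. Migratory dendritic-like cells, at 24.2 to 44.5 CPM of St3gal4, and neutrophil-like cells, at 19.7 to 110 CPM, overlapped CD8 T-like cells. St3gal4 was 106, 82.5, 89.7 and 101 CPM in cDC2-like cells. Macrophage- and monocyte-like cells had 64.5, 47.2, 60.6 and 74.4 CPM of it, against 25.0 to 31.9 CPM in CD8 T-like cells. St3gal6 was 89.3, 157, 114 and 76.0 CPM in neutrophil-like cells and 66.4, 52.3, 49.1 and 52.5 CPM in NK-like cells, which did not overlap. It was 18.5 to 26.3 CPM in CD8 T-like cells, against 4.12 to 10.0 CPM in regulatory T-like and 1.43 to 3.71 CPM in cDC2-like cells. B4galt1, the galactosyltransferase, was 164, 158, 125 and 109.8 CPM in NK-like cells and 117 to 129 CPM in conventional CD4 T-like cells, which overlapped. CD8 T-like cells followed at 61.2 to 76.8 CPM, and cDC1-like cells were lowest at 12.0 to 21.5 CPM.

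Counted over all 9, CD8 T-like and macrophage- and monocyte-like cells had ranges that did not overlap for 7 of 9 genes, where 73.7% of all genes did not. Selplg, Fut7, St3gal6 and B4galt1 were higher in CD8 T-like cells, and Vsir, Tpst1 and St3gal4 lower. NK-like cells did not overlap CD8 T-like cells for 6 of 9 genes (background, the share of all genes, 37.8%), being higher for Selplg, St3gal4, St3gal6 and B4galt1 and lower for Vsir and Fut7. The count was 4 of 9 for CD8 T-like against regulatory T-like cells (background 24.6%) and 4 of 9 for CD8 T-like against conventional CD4 T-like cells (background 39.2%). It was 6 of 9 for cDC2-like (background 36.8%) and 4 of 9 for neutrophil-like cells (background 57.2%), each against macrophage- and monocyte-like cells. The counts of CD8 T-like cells against macrophage- and monocyte-like and conventional CD4 T-like cells were near the background.

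Within CD8 T-like cells, the cluster led by Gzma, Gzmk and Ccl5 stood apart from others in several of these genes. Its Selplg was 777, 837, 642 and 818 CPM, above the 353 to 574 CPM of the other 5 clusters wherever a library had 20 cells. Its St3gal6 was 62.6, 74.8, 50.4 and 45 CPM and its B4galt1 124, 102, 117 and 115 CPM, while its Fut7 was 1.28, 1.97, 2.80 and 6.05 CPM. The cluster led by Gzmf, Serpine2 and Serpinb9b had Selplg of 396 to 468 CPM, St3gal6 of 10.2 to 20.2 CPM and Fut7 of 6.82, 16.4, 9.11 and 17.6 CPM. Between these 2 clusters, 5 of 9 genes did not overlap (background 33.9%): Selplg, Tpst2, St3gal6 and B4galt1 were higher and Fut7 lower in the Gzma cluster. Against the cluster led by Ltf, Serpine2 and Tff1 the count was 7 of 9 (background 33.8%), with Selplg, Vsir, St3gal6 and B4galt1 higher and Fut7, Gcnt1 and Tpst1 lower. Against the dividing cluster led by Hist1h1b, Gzmf and Hist1h2ap it was 6 of 9 (background 45.0%). The Gzma cluster was singled out as the only reference, outside the planned comparisons, and the other clusters were not set against each other. The 9 genes were kept out of the clustering, but clusters of the same cells are no independent test.

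The cluster led by Gzmf, Gzmd and Gzme had the highest Fut7, 18.4 CPM with anti-PD-1 (98 cells) and 21.1 CPM with the combination (140 cells); IgG and anti-PSGL-1 gave 10 and 8 such cells. The cluster led by Dapl1, 5730508B09Rik and S1pr1, of 287, 72, 154 and 16 cells, had 0, 0, 1 and 0 UMIs of Fut7, which allows up to 2.96 CPM in IgG and 9.46 CPM with anti-PD-1. Vsir was 125, 118, 81.9 and 103 CPM in the Gzma cluster and 34.6, 45.1, 30.6 and 39.5 CPM in the dividing cluster. Among NK-like cells, Selplg was 934, 915, 810.4 and 849 CPM in the cluster led by Tyrobp, Gzma and Klra4 and 554, 479.6, 435 and 450.4 CPM in that led by Gzmc, Tyrobp and Gzmd, which made up 9.16%, 5.11%, 24.2% and 20.3% of NK-like cells. The latter cluster was lower in each library and more common in both libraries that included anti-PSGL-1.

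**Figure D2:**
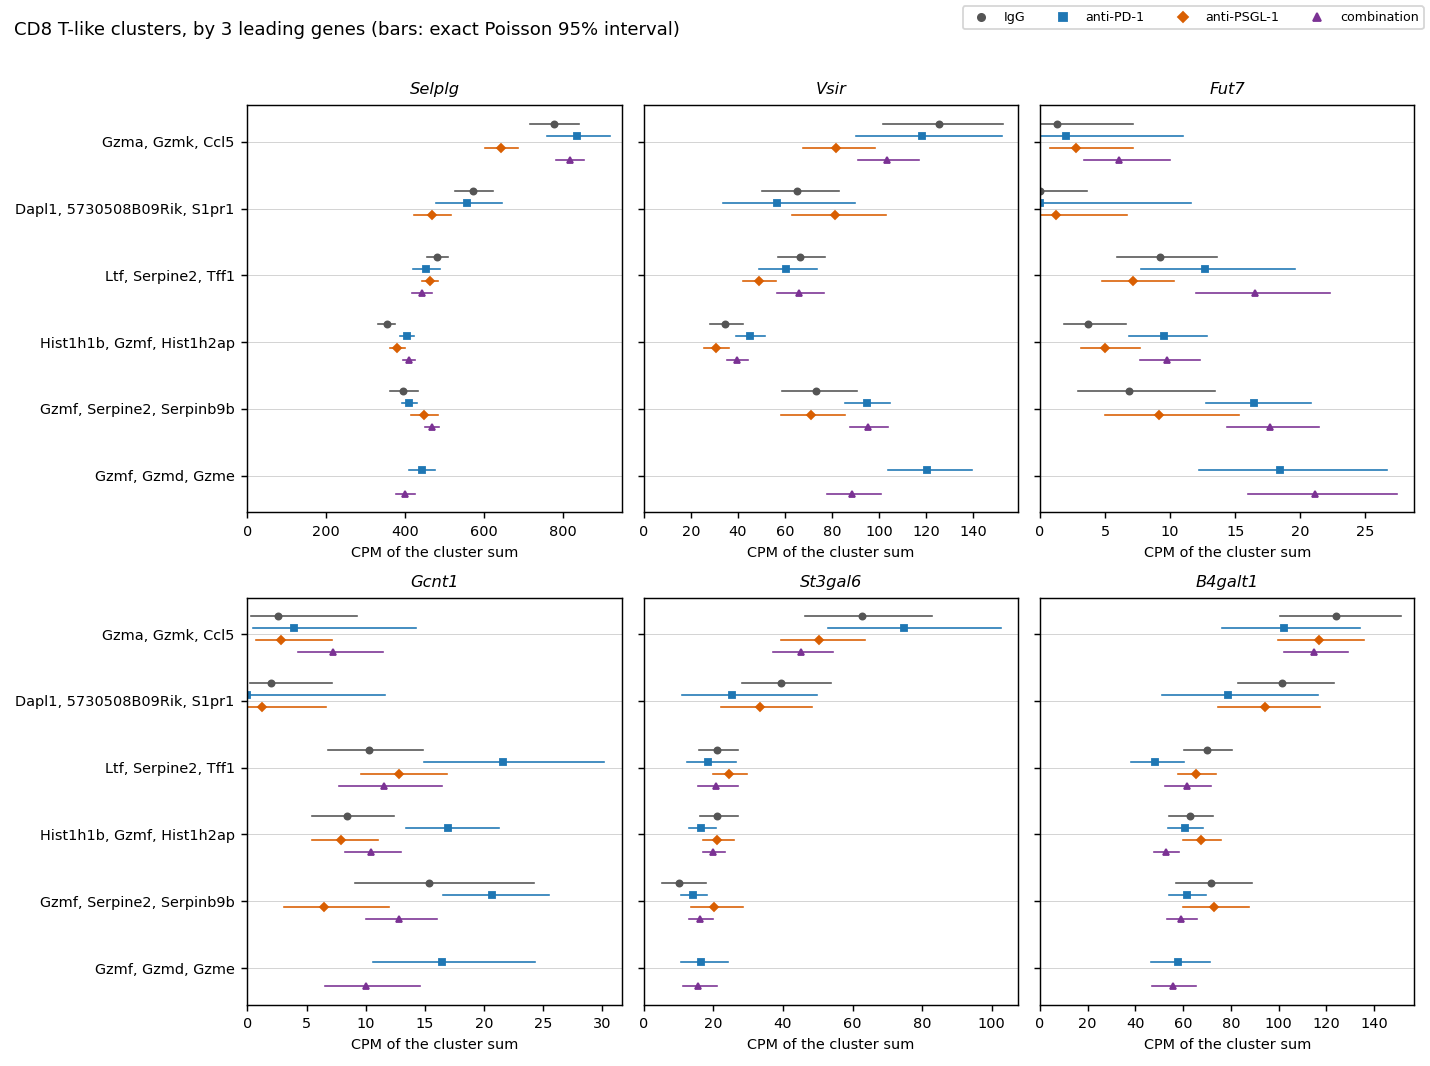
Levels (CPM of the cluster sum) in the CD8 T-like clusters, each given by its leading genes, 1 point per library with at least 20 cells and its exact Poisson 95% interval. Selplg is 642 to 837 CPM in the Gzma, Gzmk and Ccl5 cluster, and Fut7 reaches 21.1 CPM in the Gzmf, Gzmd and Gzme cluster.

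Between treatments, a gene was counted when its level differed by 1.5-fold or more and the 2 libraries held at least 20 UMIs of it together. Over the 7 classes, 10 of 54 pairs of a member and a class passed for anti-PD-1 against IgG (18.4% of all genes), 6 higher and 4 lower. For anti-PSGL-1 against IgG 4 of 57 passed (14.2%), and for the combination against IgG 8 of 54 (18.5%). The combination differed from anti-PD-1 in 9 of 50 pairs (17.3%) and from anti-PSGL-1 in 11 of 53 (18.9%). These shares were near the background, or below it for anti-PSGL-1. All treated libraries were set against the same IgG library, and ratios below have exact conditional 95% intervals.

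In CD8 T-like cells, 3 of 9 (13.9%) members passed 1.5-fold with anti-PD-1 against IgG, the share of all genes in parentheses. Fut7 was 2.47 (1.77 to 3.53) times its IgG level, Gcnt1 2.08 (1.59 to 2.73) times, and Tpst1 was at 0.457 (0.285 to 0.723) of its IgG level, from 50, 33, 53 and 69 UMIs in the 4 libraries. With the combination 2 of 9 (13.9%) passed: Fut7 was at 2.66 (1.94 to 3.72) and Tpst1 at 0.565 (0.387 to 0.831) of IgG. Gcnt1 with the combination was at 1.25 (0.960 to 1.65). With anti-PSGL-1 0 of 9 (8.16%) passed, and Fut7 was at 1.14 (0.771 to 1.69) and Gcnt1 at 0.97 (0.712 to 1.33). The combination against anti-PSGL-1 (1 of 9 (14.6%)) gave Fut7 a ratio of 2.34 (1.80 to 3.08). On cells thinned to 2000 UMIs, Fut7 was at 0.725 of IgG with anti-PSGL-1, from 11 against 14 cells with a UMI, and the combination at 3.85 of anti-PSGL-1. Against anti-PD-1 (1 of 9 (9.42%)), it gave Gcnt1 a ratio of 0.603 (0.499 to 0.728) and Fut7 one of 1.07 (0.883 to 1.31).

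The cluster makeup of CD8 T-like cells differed between libraries, and no cluster held most of them in any. The cluster led by Gzmf, Serpine2 and Serpinb9b made up 11.5%, 33.5%, 11.1% and 26.6% of them and the cluster led by Ltf, Serpine2 and Tff1 31.8%, 15.9%, 33.1% and 14.4%. Within the first, Fut7 was at 2.41 (1.16 to 5.80) and 2.59 (1.26 to 6.15) of IgG with anti-PD-1 and the combination. Within the dividing cluster it was at 2.57 (1.30 to 5.53) and 2.64 (1.40 to 5.52), and within the Ltf cluster at 1.38 (0.728 to 2.59) and 1.80 (1.07 to 3.07). Fut7 was thus above IgG in all 3 clusters in both libraries, with an interval reaching below 1 in the Ltf cluster with anti-PD-1. With the clusters weighed alike in every library, an alternative chosen after seeing the data, the anti-PD-1 and combination ratios were 2.28 and 2.64 for Fut7. For Gcnt1 the anti-PD-1 ratio was then 1.88, and for Tpst1 the 2 ratios were 0.475 and 0.706, the last no longer past 1.5-fold.

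The share of CD8 T-like cells with a Fut7 UMI was 3.07%, 12.5%, 4.94% and 14.6%, at median depths of 4777, 10100, 7437 and 10958 UMIs. Thinned to 2000 UMIs per cell, which left out 60, 20, 31 and 21 shallower cells, the shares were 1.07%, 2.57%, 0.831% and 3.01%. In macrophage- and monocyte-like cells, low in Fut7, the shares were 0.426%, 0.992%, 1.42% and 1.07% at median depths of 4721, 6291.5, 6785 and 8094.5 UMIs, and 0.142%, 0.392%, 0.451% and 0.195% when thinned, with 238, 124, 169 and 46 cells left out. The thinned share in CD8 T-like cells was above that in macrophage- and monocyte-like cells in each library, with intervals that overlapped with anti-PSGL-1, and was higher in the 2 libraries that included anti-PD-1. For Tpst1 the thinned shares in CD8 T-like cells were 0.917%, 0.55%, 0.680% and 0.784%, and its combination ratio on thinned cells was 0.986 in place of 0.565 (0.387 to 0.831). The 11 macrophage markers summed to 23.3, 22.4, 27.3 and 18.8 CPM in CD8 T-like cells, with none at 0, and the 7 neutrophil markers to 10.2, 2.69, 12.0 and 4.82 CPM, with Csf3r at 0 in IgG and Retnlg at 0 in the combination; their part in the Tpst1 values was not tested.

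Selplg in CD8 T-like cells stayed near its IgG level, at 0.947 (0.910 to 0.987), 0.982 (0.943 to 1.02) and 1.03 (0.993 to 1.07) with anti-PD-1, anti-PSGL-1 and the combination, in that order. Vsir was at 1.22 (1.1 to 1.36), 0.827 (0.736 to 0.930) and 1.15 (1.04 to 1.27), above IgG in both libraries that included anti-PD-1 and below it with anti-PSGL-1. St3gal6 was at 0.726 (0.602 to 0.876) with anti-PD-1, and B4galt1 at 0.797 (0.718 to 0.885) and 0.825 (0.752 to 0.907) with anti-PD-1 and the combination. With clusters weighed alike, Selplg was at 1.05 of IgG with anti-PD-1, on the other side of 1, and St3gal6 at 0.938, while B4galt1 was at 0.797. Vsir was then at 1.09 with anti-PD-1 and 1.04 with the combination.

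**Figure D3:**
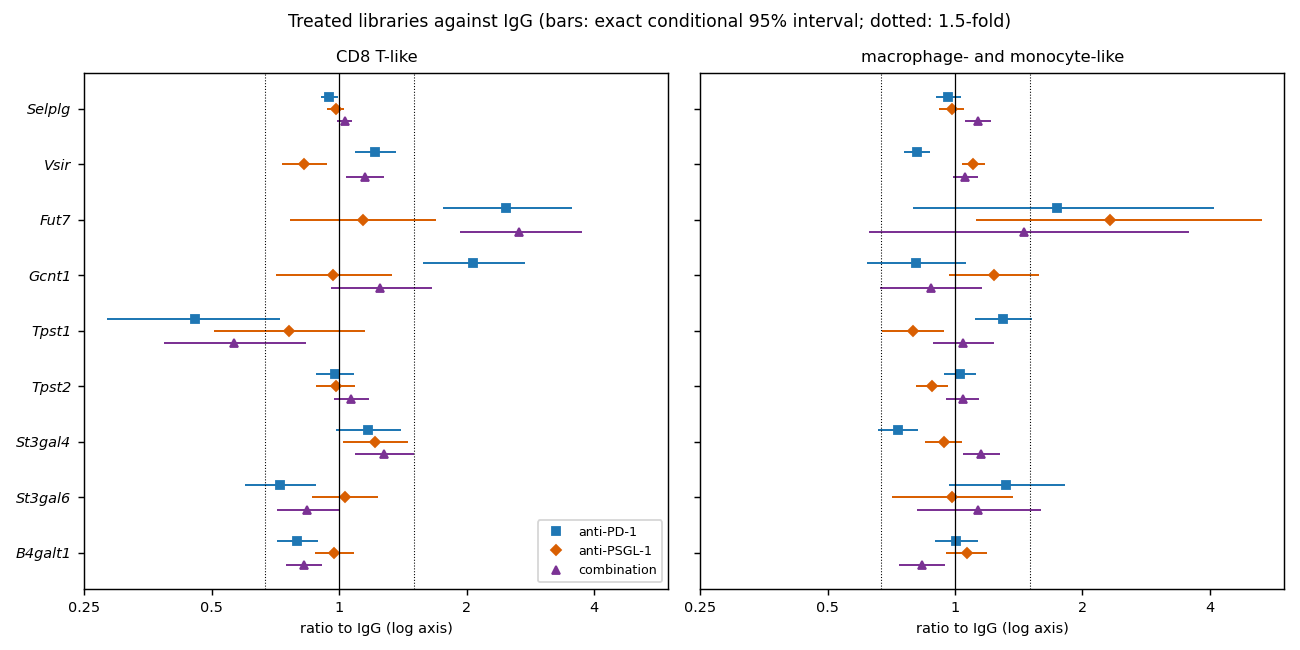
Ratio of each treated library to IgG (log scale) for the 9 genes in CD8 T-like cells and in macrophage- and monocyte-like cells, with exact conditional 95% intervals. In CD8 T-like cells Fut7 lies at 2.47 with anti-PD-1 and 2.66 with the combination, and Tpst1 below 1 in each treated library.

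In macrophage- and monocyte-like cells, 1 of 9 (18.4%) members passed 1.5-fold with anti-PD-1, 1 of 9 (9.67%) with anti-PSGL-1 and 0 of 9 (12.1%) with the combination, against IgG. The gene was Fut7 both times, at 1.74 (0.801 to 4.07) and 2.33 (1.13 to 5.27), from 10, 24, 35 and 17 UMIs in the 4 libraries. Vsir was at 0.812 (0.762 to 0.866), 1.11 (1.04 to 1.17) and 1.06 (0.993 to 1.13) in the order above, so the anti-PD-1 library was the low one. Tpst1 was at 1.30 (1.12 to 1.51), 0.797 (0.677 to 0.937) and 1.05 (0.890 to 1.23), with anti-PD-1 high and anti-PSGL-1 low. Selplg was at 0.965 (0.905 to 1.03), 0.981 (0.922 to 1.04) and 1.13 (1.06 to 1.21). With clusters weighed alike, the anti-PD-1 ratio was 0.912 for Vsir and 1.05 for Selplg, the latter on the other side of 1. The combination against anti-PD-1 (1 of 9 (12.7%)) gave St3gal4 a ratio of 1.58 (1.43 to 1.73), and 1.24 with clusters weighed alike, below 1.5-fold. Against anti-PSGL-1 (1 of 9 (13.4%)) the gene past 1.5-fold was Fut7, at 0.624 (0.328 to 1.14). The 6 T cell markers summed to 49.5, 36.6, 43.3 and 33.9 CPM in these cells, and their part in the Fut7 ratios was not tested.

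The cluster makeup of these cells differed between libraries too. The cluster led by Lyz2, Thbs1 and Tgfbi made up 33.3%, 7.40%, 31.9% and 16.3%, and that led by Lyz2, Cxcl9 and Ccl2 11.7%, 40.1%, 8.67% and 28.1%. Vsir was 166, 154, 181 and 194 CPM in the first and 113, 122, 122 and 138 CPM in the second, which did not overlap. The clusters led by Lyz2, Chil3 and Hp and by Lyz2, Chil3 and S100a9 had the highest Selplg, 209 to 277 CPM, and St3gal4, 108 to 165 CPM. The cluster led by Arg1, Inhba and Cxcl2 had 66.6 to 81.9 CPM of Selplg and 11.2 to 15.5 CPM of St3gal4, with 76.6 to 105 CPM of B4galt1. St3gal4 was also low, at 13.5 to 19.5 CPM, in the cluster led by C1qa, Ccl8 and C1qb.

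In the Lyz2, Chil3 and Hp cluster, singled out after its values were seen, Tpst1 was 33.9, 70.1, 18.3 and 38.1 CPM over 408, 297, 306 and 230 cells. The anti-PD-1 library was at 2.07 (1.53 to 2.82) of IgG and the anti-PSGL-1 library at 0.540 (0.352 to 0.819). Vsir there was 197, 149.5, 254 and 237 CPM, and the anti-PD-1 library, highest for Tpst1, was lowest.

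**Figure D4:**
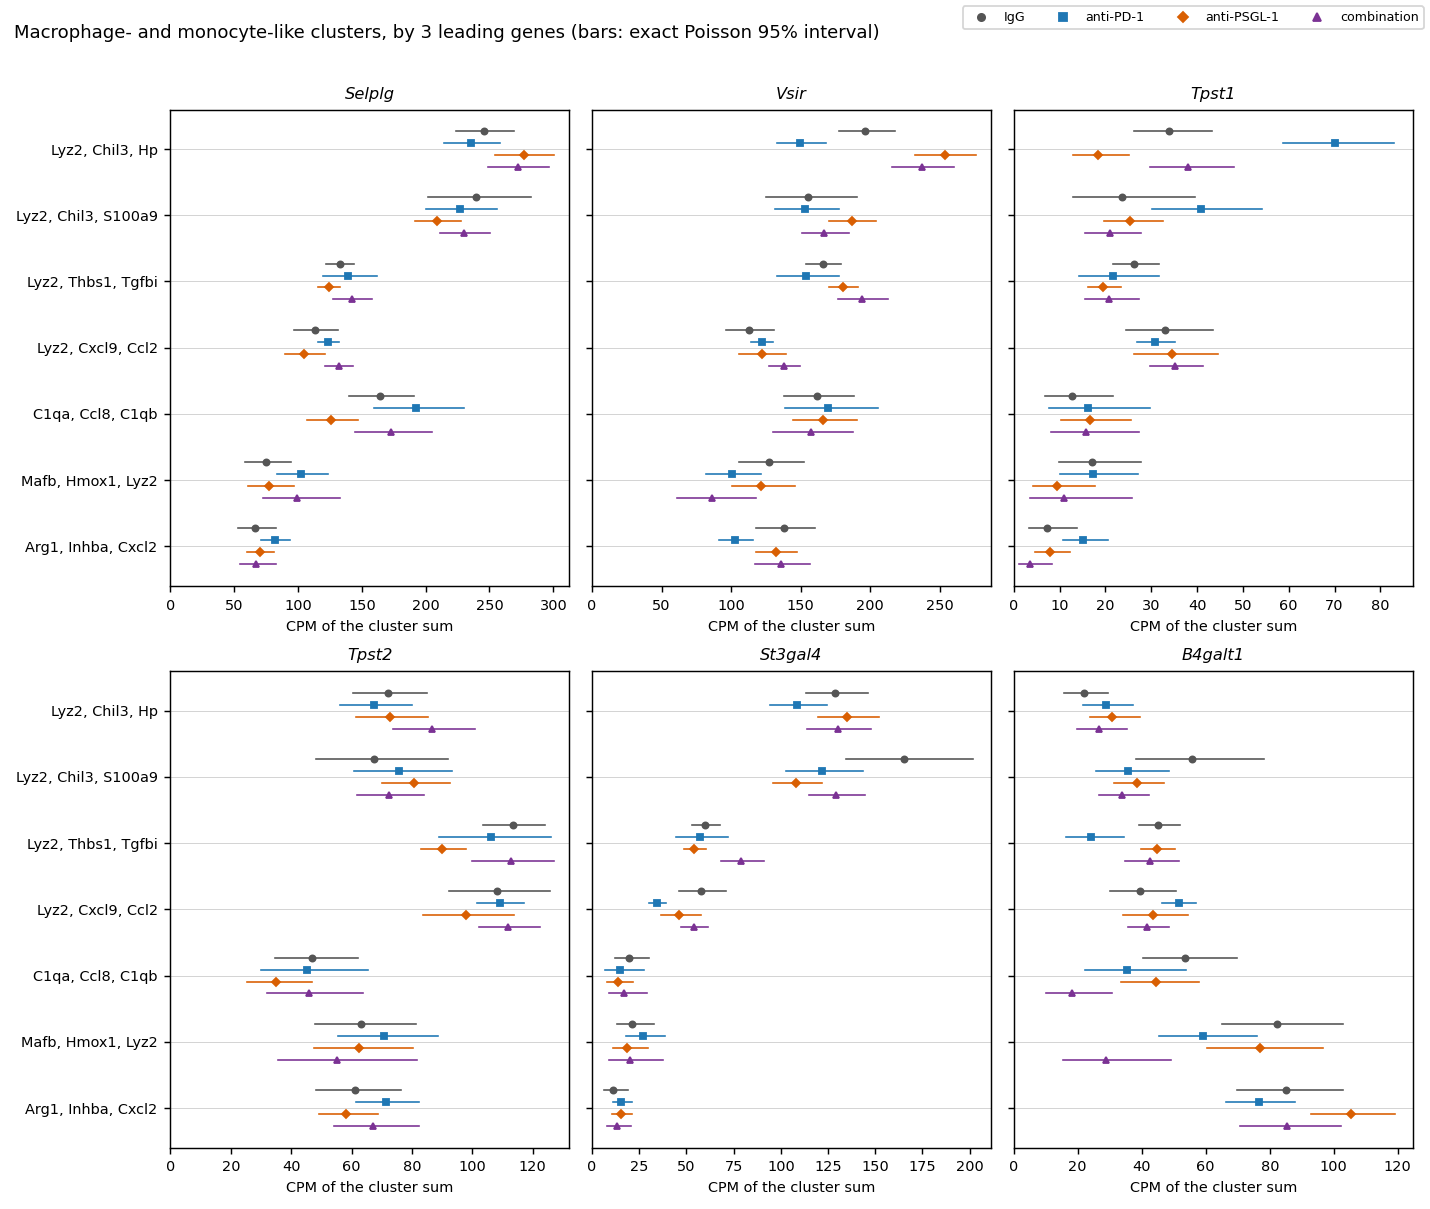
Levels (CPM of the cluster sum) in the macrophage- and monocyte-like clusters, each given by its leading genes, 1 point per library with its exact Poisson 95% interval. Selplg and St3gal4 are highest in the 2 Chil3 clusters, and Tpst1 reaches 70.1 CPM with anti-PD-1 in the Lyz2, Chil3 and Hp cluster.

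In NK-like cells Selplg was at 1.00 (0.939 to 1.07), 0.757 (0.709 to 0.809) and 0.805 (0.750 to 0.863) of IgG, within 1.5-fold, and within the Tyrobp, Gzma and Klra4 cluster at 0.868 (0.806 to 0.934) and 0.909 (0.841 to 0.983) in the 2 libraries that included anti-PSGL-1. B4galt1 over all NK-like cells was at 0.763 (0.654 to 0.889) and 0.671 (0.564 to 0.798) in the same libraries. The counts past 1.5-fold in NK-like cells were 1 of 7 (13.5%), 1 of 7 (18.4%) and 0 of 7 (22.4%) against IgG, and 1 of 7 (23.4%) and 1 of 7 (17.4%) for the combination against anti-PD-1 and anti-PSGL-1. Each gene counted was Gcnt1, which with anti-PD-1 was at 1.79 (1.04 to 3.15) and with anti-PSGL-1 at 1.67 (0.983 to 2.91) of IgG, and was lower in the combination than with either antibody alone.

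In regulatory T-like cells the same 5 counts were 1 of 7 (18.6%), 1 of 9 (12.9%), 1 of 8 (18.6%), 1 of 7 (18.7%) and 2 of 7 (20.4%). Gcnt1 with anti-PD-1 was at 2.07 (1.19 to 3.58) of IgG, and with anti-PSGL-1 at 0.630 (0.329 to 1.16). In conventional CD4 T-like cells they were 1 of 6 (21.2%), 0 of 7 (18.5%), 0 of 6 (18.9%), 0 of 6 (22.1%) and 1 of 7 (19.3%), and Selplg with anti-PSGL-1 was at 0.740 (0.661 to 0.829) of IgG. In cDC2-like cells they were 1 of 9 (19.8%), 0 of 9 (13.0%), 2 of 8 (19.2%), 1 of 7 (17.1%) and 2 of 7 (24.0%), with Fut7 at 0.253 (0.0485 to 0.842) of IgG with anti-PD-1, from 22, 3, 14 and 4 UMIs in the 4 libraries, and after thinning from 1 IgG and 2 anti-PD-1 cells with a UMI, too few to give a direction.

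In neutrophil-like cells, of which the libraries held 450, 54, 252 and 96, the same 5 counts were 2 of 7 (37.6%), 1 of 7 (29.6%), 3 of 7 (41.5%), 4 of 5 (45.8%) and 3 of 7 (36.3%). Selplg was 306, 246, 379 and 519.6 CPM, and the combination was at 1.70 (1.34 to 2.14) of IgG. Over the alternatives run, that Selplg ratio was 1.14 to 2.42, so it did not always pass 1.5-fold. St3gal4 was with anti-PD-1 at 0.325 of IgG, with an interval that included 1, and for the combination against anti-PD-1 at 5.58. Both St3gal4 ratios rest on the 54 anti-PD-1 cells. For the combination against IgG, St3gal4 was at 1.81 (1.06 to 3.07), or 1.30 to 1.90 over the alternatives run, and Tpst2 at 0.461 (0.227 to 0.858). On cells thinned to 2000 UMIs, which left out 410 of the 450 IgG cells, the Tpst2 ratio was 1.09. The neutrophil markers summed to 57901, 44747, 77014 and 94458 CPM and the monocyte markers to 363, 266, 1067 and 896 CPM in these cells; their part in these ratios was not tested.

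The wider pathway was read from lists of 47 further genes. In CD8 T-like cells, 0 were 1.5-fold higher and 3 lower with anti-PD-1 among 33 with enough UMIs (13.9% of all genes passed in either direction), 1 and 0 among 34 with anti-PSGL-1 (8.16%), and 1 and 4 among 35 with the combination (13.9%). These counts were near the background or below it. Their median log2 ratios were 0.01, -0.02 and 0.01, beside 0.00, -0.03 and 0.02 over all genes. St3gal3, another sialyltransferase, was with anti-PSGL-1 at 1.71 (1.04 to 2.88) and with the combination at 1.66 (1.05 to 2.71). Galnt3, which starts O-glycans, was at 1.37 (1.16 to 1.61) and Ezr, which encodes the cytoskeletal linker ezrin, at 1.20 (1.14 to 1.27) with anti-PD-1. With the combination Snx20, whose product binds the tail of PSGL-1, was at 1.35 (1.21 to 1.5), Galnt1 at 1.32 (1.20 to 1.45) and Lrig1, from the list of binding partners, at 0.351 (0.148 to 0.818). Cd44, an adhesion receptor that can also carry selectin ligands, was at 1.17 (1.05 to 1.30) and C1galt1c1, the chaperone of the core 1 enzyme, at 0.740 (0.563 to 0.972) with anti-PSGL-1. Tsta3, an enzyme of GDP-fucose synthesis, was at 0.819 (0.699 to 0.960) with anti-PD-1.

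In macrophage- and monocyte-like cells, 3 list genes were higher and 5 lower with anti-PD-1 among 36 (18.4% of all genes in either direction), 4 and 0 among 36 with anti-PSGL-1 (9.67%), and 4 and 0 among 34 with the combination (12.1%). These counts were near the background. Their median log2 ratios were -0.01, 0.10 and 0.17, beside -0.04, -0.01 and 0.02 over all genes. Selp, the gene of P-selectin, was with anti-PD-1 at 2.90 (1.66 to 5.37) and with the combination at 2.57 (1.43 to 4.84). Its levels were low, 4.04 and 3.57 CPM against 1.39 CPM in IgG. Neutrophil-like cells had 12.8 to 19.7 CPM of Selp, and the part of other cells in these ratios was not tested. Gmds, an enzyme of GDP-fucose synthesis, was at 0.619 (0.473 to 0.809), 0.714 (0.555 to 0.919) and 0.745 (0.570 to 0.972) of IgG, below it in each treated library. Slc35c1, the GDP-fucose transporter, was at 0.651 (0.497 to 0.853) with anti-PD-1. Spn, which encodes the mucin CD43, was at 1.88 (1.63 to 2.17) and Nans, of sialic acid synthesis, at 0.860 (0.773 to 0.957) with the combination. Cd24a, another protein that can carry selectin ligands, was at 1.67 (1.48 to 1.89), Ezr at 1.37 (1.29 to 1.46) and Tsta3 at 0.814 (0.703 to 0.942) with anti-PSGL-1.

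Over 37 sums of a class in a library (11 classes), the genes whose log2(CPM + 1) followed Selplg most closely among 5336 genes were Sla2 (0.743), Os9 (0.730), Serpinb6b (0.724), Prex1 (0.712) and D16Ertd472e (0.708), with Pearson's r in parentheses. Those closest to Vsir were Pkm (0.865), Tmem38b (0.845), Ero1l (0.843), Map2k3 (0.843) and Cdk2ap2 (0.830). Selplg and Vsir themselves had an r of -0.16. Among the 9 genes, r was highest for Vsir with Gcnt1 at 0.71 and lowest for Selplg with Tpst1 at -0.72. Sums of 1 library share its depth and preparation, so these values only describe the sums.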

How the data were processed

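The authors deposited raw UMI counts per gene and cell barcode, without normalisation, for 4 libraries made on the 10x Chromium system, per the labels. Cell Ranger 3.1.0, FastQC and mm10 are named in the submitters' processing notes; the annotation release is not given in the sources used here. The libraries held 45411218, 40913129, 53303195 and 44983543 UMIs, in the report's order.

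Cells with fewer than 300 genes, over 10% mitochondrial UMIs or over 60000 UMIs were left out. Scrublet's default cut found 1, 84, 0 and 42 doublets, too few to be trusted, so its top-scoring cells were dropped at 0.8% per 1000 cells (717, 219, 377 and 154). Leiden clustering used 2000 variable genes without the 9 members and the listed pathway genes, 30 principal components, 20 neighbours and resolution 1 (Python 3.11.15, scanpy 1.11.5, leidenalg 0.10.2, scipy 1.17.1), with T and NK cells clustered again. A class name needed 3 markers, each in 10% of cells and 1.5-fold over the median cluster, a threshold chosen with the data in view. Macrophage and monocyte clusters were summed because some carried markers of both; other T and unnamed clusters were left out.

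Counts were summed by class and library, and CPM, ratios and their intervals computed from the sums; the interval method was tested on simulated data. There was no test between treatments. The 5 comparisons were the 3 treated libraries with IgG and the combination with either antibody alone. Alternatives were other filters, scalings, clusterings, depths and thresholds. The members and lists were chosen with earlier results of these data known. All members are named, as are 2 pathway genes furthest above and 2 furthest below IgG by the interval bound nearest 1, in CD8 T-like and in macrophage- and monocyte-like cells; values of some genes this rule picked are not reported here. Promoter sequences are from RefSeq on GRCm38.p6.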

Additional observations from a re-analysis of the deposited data

How the results depend on the processing

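Of the recomputed counts of members, 60 stayed within 1.5 times of the reported count and 21 moved. Where cells were named by a marker gate per cell, the counts were 4 for anti-PD-1 and 3 for the combination against IgG, and 3 and 5 for the combination against anti-PD-1 and anti-PSGL-1. On cells thinned to 2000 UMIs they were 6 and 4 against IgG and 4 for the combination against anti-PSGL-1. With a minimum of 100 UMIs the 5 counts were 2, 0, 3, 3 and 1, and with a 2-fold threshold 6, 1, 3, 5 and 4. With no minimum they were 9 for anti-PSGL-1 and 14 for the combination against IgG, and 17 and 17 for the 2 others. The number of pairs and the share of all genes were not recomputed under these alternatives, so these counts have no background beside them. A class with fewer than 50 cells in a library left the count, as neutrophil-like cells did on thinned cells. A lower count can thus come from fewer pairs. The count of members apart between CD8 T-like and macrophage- and monocyte-like cells was 7 under each alternative run for it.

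Thinning turned the direction of Fut7 in cDC2-like cells with anti-PD-1 (4.89) and the combination (4.34) against IgG, of Tpst2 in neutrophil-like cells with the combination (1.09), and, for the combination against anti-PSGL-1, of Tpst1 in cDC2-like (0.667) and St3gal4 in regulatory T-like cells (1.05). The last was 1.23 without dividing cells. The marker gate turned Gcnt1 in regulatory T-like cells for the combination against anti-PSGL-1 (0.871), and St3gal6 in neutrophil-like cells with anti-PD-1 against IgG (0.994) and with the combination against anti-PD-1 (1.23). The thinned Fut7 values rest on 1 cell of 521 with a UMI in IgG, 2 of 213 with anti-PD-1 and 1 of 120 with the combination, and the thinned Tpst2 values on 5 of 40 cells in IgG and 8 of 66 with the combination, so no direction is read from them. The thinned St3gal4 values in regulatory T-like cells rest on 9 of 236 cells with anti-PSGL-1 and 3 of 75 with the combination, so they give no direction either. For the other turned ratios the cause was not tested. In CD8 T-like cells, over the alternatives run, the ratio to IgG with anti-PD-1 was 2.21 to 2.58 for Fut7, 1.88 to 2.16 for Gcnt1 and 0.372 to 0.60 for Tpst1, and that with the combination 2.47 to 3.00 for Fut7 and 0.408 to 0.986 for Tpst1. Fut7 moved to 0.725 of IgG with anti-PSGL-1 and 3.85 for the combination against anti-PSGL-1 on thinned cells. No paired analysis was possible because each treatment is 1 library, so no difference has a replicate check.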
